A study of Mus musculus with 10 samples.

Results

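The LIF-JAK-STAT3 pathway is described here by 9 genes, named by symbol and not by their values: the receptor genes Lifr and Il6st, the kinase genes Jak1 and Jak2, the transcription factor gene Stat3, its feedback inhibitors Socs3 and Socs2, and its targets Pim1 and Gbx2. All 9 were among the 21853 genes listed, and all 9 passed the filter on low values that left 12060 genes for testing. RNA sequencing covered 5 lines of mouse embryonic stem cells (ESCs) of the J1 line, with 2 libraries each. These were wild-type naïve ESCs (J1-WT), AKO (genotype AMPK KO), GKO (GYS1 KO), DKO (AMPK, GYS1 KO) and wild-type primed ESCs (PJ1). The J1 medium held serum, 1000 U/ml LIF, 1 µM of the MEK inhibitor PD0325901 and 3 µM of the GSK3 inhibitor CHIR99021, on gelatin. For PJ1, the medium held serum replacement, 10 ng/ml bFgf and 20 ng/ml Activin on Matrigel, and LIF is not in its recipe. Medium and pluripotent state therefore cannot be told apart in the comparison of primed with naïve ESCs.

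LIF binds a receptor made of LIFR and gp130, the product of Il6st, and the JAK kinases bound to that receptor phosphorylate STAT3. Phosphorylated STAT3 enters the nucleus and raises its targets, among them Socs3, whose product binds gp130 and JAKs and shuts the signal down. In mouse ESCs this route supports self-renewal of the naïve state, whereas primed ESCs are kept by bFgf and Activin. The activating step is a phosphorylation, so levels of mRNA do not measure STAT3 activity.

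GKO came from CRISPR/Cas9 cutting in exon 9 of Gys1, the glycogen synthase gene, with single clones picked. AKO and DKO carry an integrated RFP reporter at Prkaa1, which encodes the α1 catalytic subunit of AMPK. Which clones gave the 2 libraries of a line, and whether these were separate cultures, is not stated in the sources used here. The p-values therefore measure the spread between libraries, which may be technical, and a clone cannot be told apart from its genotype. Prkaa1 stood at 15.5 and 16.6 TPM in naïve ESCs, 7.24 and 6.94 in AKO and 2.30 and 2.04 in DKO. Gys1 stood at 11.5 and 10.8 TPM in naïve ESCs, 12.7 and 12.2 in AKO, 12.1 and 11.7 in DKO and 9.70 and 9.98 in GKO. A small indel is not visible in such a level. The 6 naïve markers summed to 761 to 882 TPM in the libraries of the 4 J1 lines and to 2.93 to 3.23 TPM in primed ESCs, where Dppa3 was listed at 0 in both. The 6 primed markers summed to 49.5 to 50.3 TPM in naïve ESCs, 41.2 to 41.9 in AKO, 50.1 to 52.0 in DKO and 70.2 to 70.4 in GKO, against 407 to 449.5 TPM in primed ESCs. Of the 5 primed markers tested, 2 were called higher and 0 lower in GKO than in naïve ESCs, and 2 higher and 2 lower in DKO. Of the 6 naïve markers, 5 were called higher and 0 lower in GKO, and 4 higher and 0 lower in DKO. Of all tested genes, 24.7% were called higher in GKO and 21.7% in DKO. Pou5f1, Sox2 and Nanog together stood at 1415 to 1612 TPM in the J1 lines and at 711 to 759 TPM in primed ESCs. In bulk RNA, fewer cells of a type and less RNA per cell cannot be told apart.

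Levels are given as TPM, an abundance within a library that is corrected for transcript length, so genes can be compared with each other. TPM keeps no depth, and no counting error could be set. In naïve ESCs the mean level fell in the order Socs3, Pim1, Stat3, Socs2, Lifr, Il6st, Gbx2, Jak1 and Jak2, from 57.6 TPM for Socs3 to 2.52 TPM for Jak2. Differences between lines were tested on log2(TPM + 1) with limma, in 1 fit of the 10 libraries with Benjamini-Hochberg adjustment over the 12060 genes, and called at an adjusted p under 0.05. For a single gene, 2 libraries against 2 allow no exact two-sided p below 0.333. limma pools the spread over genes and over all 5 lines, and the calls depend on that pooling.

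**Figure D1:**
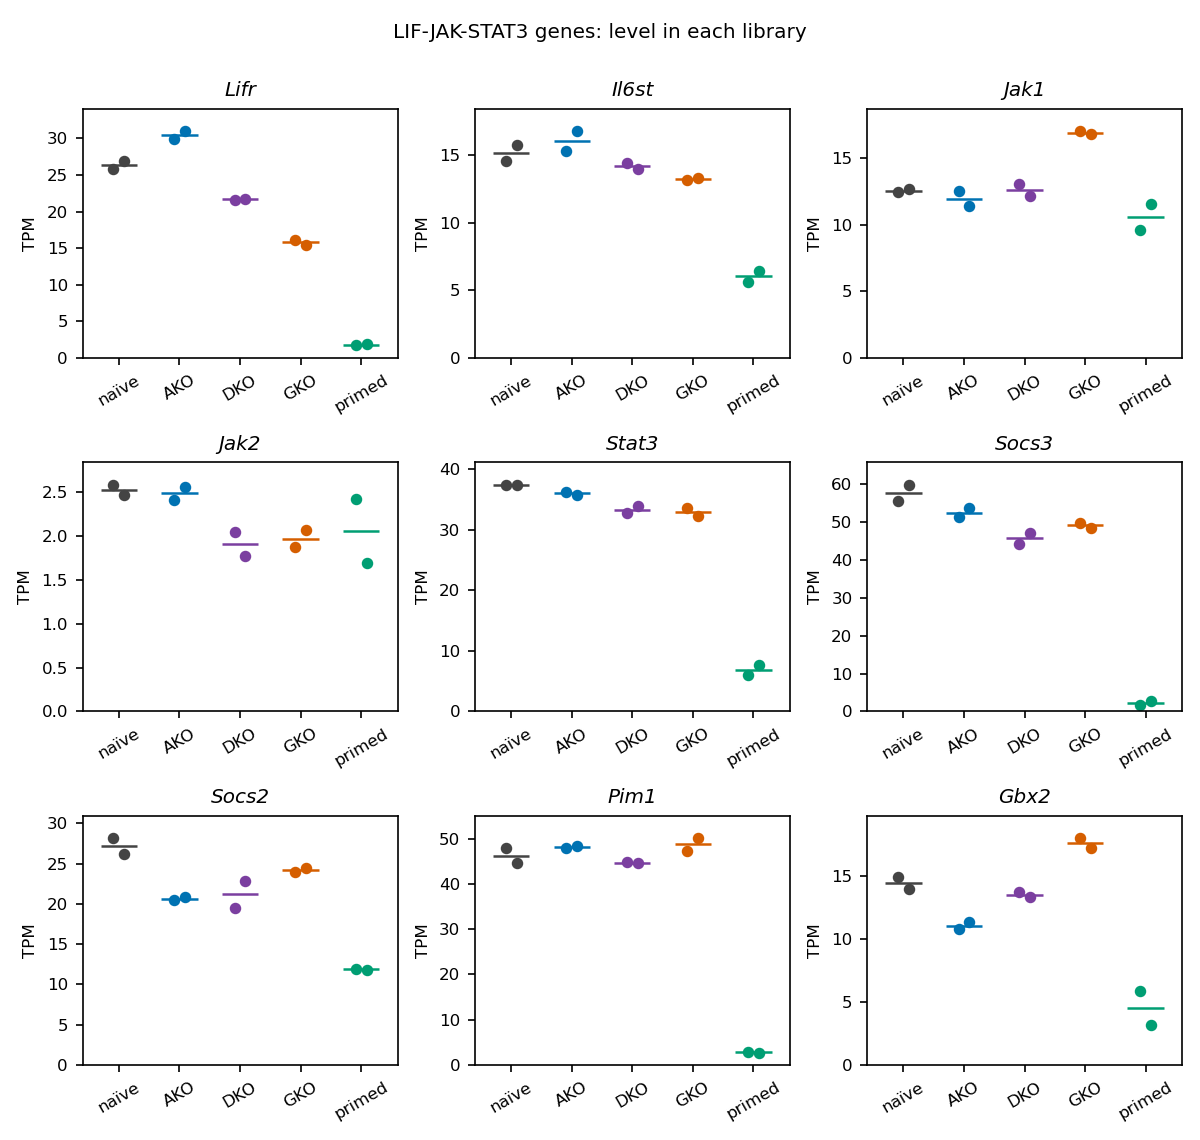
Level of each of the 9 genes in every library, in TPM on axes that start at 0, for naïve ESCs, AKO, DKO, GKO and primed ESCs (2 points per line, bar at their mean). Lifr falls from 30.9 TPM in AKO to 15.5 TPM in GKO and 1.76 TPM in primed ESCs, and Socs3 and Pim1 lie at 44.2 TPM or more in all J1 libraries and at 2.82 TPM or less in primed ESCs.

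Primed ESCs had 8 of the 9 genes called lower than naïve ESCs and 0 called higher. Of all tested genes, 80.0% were called in this comparison, 37.4% higher and 42.5% lower. The median difference of the 9 genes was -1.53 on the log2 scale, against -0.05 over all tested genes. Both primed libraries lay below both naïve libraries for 9 of 9 genes, and for 47.0% of all tested genes. Socs3, Pim1, Lifr and Stat3 had the 4 largest falls of the 9, and Jak2 was not called. The primed libraries differed more from each other than those of the other lines, with a median absolute difference of 0.13 on the log2 scale against 0.06 to 0.07.

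GKO had 1 of the 9 genes called lower than naïve ESCs, Lifr, and 1 called higher, Jak1. Of all tested genes 51.7% were called, 24.7% higher and 27.1% lower, so the share among the 9 was below that background. Without the primed libraries in the fit, 7 of the 9 were called, and 7286 of the 12060 genes. The differences themselves stay as they are in that fit, and the 5 genes added were Il6st, Jak2, Stat3 and Socs3 (lower) and Gbx2 (higher). The libraries of GKO did not overlap those of naïve ESCs for 8 genes, 2 above and 6 below, while 39.6% of all tested genes lay above and 42.0% below.

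DKO had 3 of the 9 genes called lower than naïve ESCs, Lifr, Socs2 and Socs3, and 0 called higher. The background was 46.0%, with 21.7% higher and 24.3% lower. Without the primed libraries 5 were called, with Jak2 and Stat3 added, among 6614 genes. All DKO libraries lay below all naïve libraries for 7 of the 9 genes and above for 0, against 40.7% and 38.1% of all tested genes.

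AKO had 0 of the 9 genes called against naïve ESCs by limma, where 0.224% of all genes were called, 0.0663% higher and 0.158% lower. At an unadjusted p under 0.05, 2 of the 9 genes differed, Lifr and Socs2, as did 1231 of the 12060 genes. With the primed libraries left out, 1 of the 9 genes was called, Gbx2 (adjusted p = 0.0304 in limma, within a range of 0.0304 to 0.971 over its alternatives). In that fit 131 of the 12060 genes were called. The libraries did not overlap for 6 of the 9 genes, 2 above and 4 below, against 22.8% and 26.5% of all tested genes.

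DKO had 1 of the 9 genes called lower than AKO, Lifr, and 0 called higher, at a background of 46.3% (22.4% higher, 23.9% lower). Without the primed libraries 6 were called, among 6659 genes. GKO had Jak1 called higher and Lifr lower than DKO, 2 of the 9, at a background of 43.5% (21.2% higher, 22.4% lower). Primed ESCs, GKO, DKO and AKO were all compared with the same 2 naïve libraries, so those comparisons are not independent of each other. DKO and AKO differ in Prkaa1 level (2.30 and 2.04 against 7.24 and 6.94 TPM) as well as in Gys1 genotype. DKO against AKO is therefore not a difference in Gys1 alone. GKO against naïve and DKO against AKO share no library. The difference between these, the interaction of Gys1 and AMPK, was called for 0 of the 9 genes by limma, at a background of 25.8% (12.8% higher, 13.1% lower). At an unadjusted p under 0.05 it passed for 3 of the 9, Lifr, Jak1 and Pim1, and for 4681 genes in all. Without the primed libraries the interaction was called for 2 of the 9 genes, Lifr and Jak1, and for 4499 of the 12060 genes tested.

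**Figure D2:**
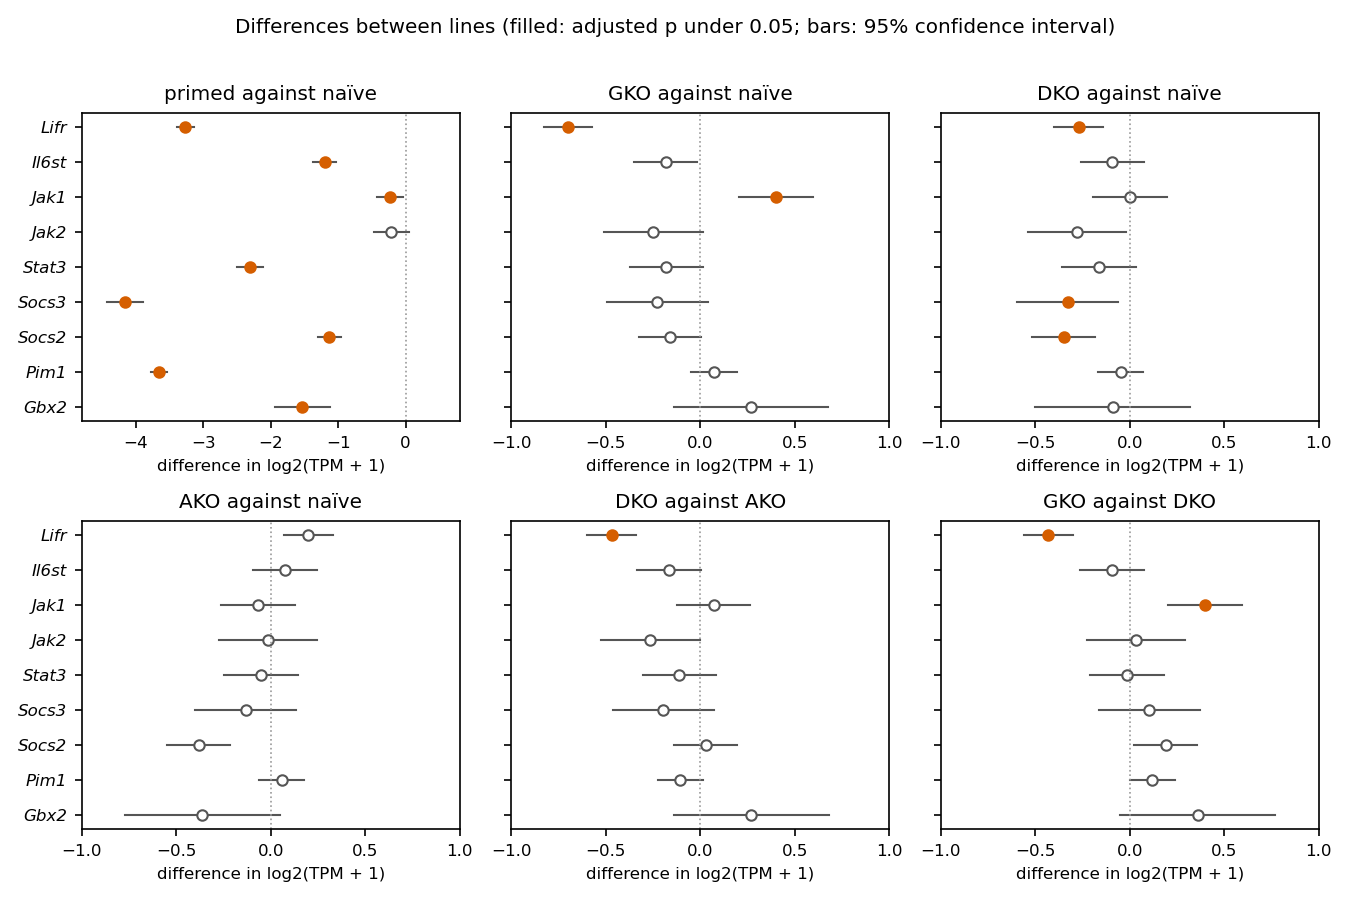
Difference of each of the 9 genes in 6 comparisons between lines, in log2(TPM + 1), with its 95% confidence interval from limma and filled points at an adjusted p under 0.05. The horizontal axis of the first panel is wider than the others: primed ESCs reach -4.16 for Socs3, while no difference among the J1 lines is beyond -0.70, that of Lifr in GKO.

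Lifr (ENSMUSG00000054263, chr15:7120095-7226970 on the plus strand of GRCm39) encodes the subunit that forms the LIF receptor together with gp130. It stood at 25.8 and 26.9 TPM in naïve ESCs, 29.9 and 30.9 in AKO, 21.6 and 21.8 in DKO, 16.2 and 15.5 in GKO, against 1.76 and 1.93 in primed ESCs. The order of the lines was AKO, naïve, DKO, GKO and primed ESCs, and the libraries of no neighbouring lines overlapped. In primed ESCs the mean was 14.3-fold lower than in naïve ESCs, with a log2 difference of -3.27 (SE 0.06, adjusted p = 2.16e-10 from limma). In GKO the mean was 1.66-fold lower, with a log2 difference of -0.70 (SE 0.06, adjusted p = 2.33e-05), and 4.20% of all tested genes had a lower difference. DKO lay between GKO and naïve ESCs, at -0.27 against naïve ESCs (adjusted p = 0.00449) and at 0.43 above GKO (GKO minus DKO -0.43, adjusted p = 0.000428). These calls of Lifr in GKO and DKO held in 13 of 13 alternatives each. AKO was at 0.20 above naïve ESCs (unadjusted p = 0.0068, adjusted p = 0.247), which was not called.

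Lifr was called lower in GKO than in naïve ESCs and lower in DKO than in AKO. The difference was -0.70 (95% CI -0.83 to -0.57) from naïve ESCs to GKO and -0.47 (-0.60 to -0.34, adjusted p = 0.000239 from limma) from AKO to DKO. The difference between these, -0.23 (-0.41 to -0.05), had an adjusted p of 0.065 in limma and was not called. Its adjusted p was between 0.0213 and 0.199 over 16 alternatives and passed in 1 of them.

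Il6st (ENSMUSG00000021756, chr13:112600604-112646620, plus strand) encodes gp130, the signalling subunit that all cytokines of the IL-6 family share. Its level was 14.5 and 15.8 TPM in naïve ESCs, 15.3 and 16.7 in AKO, 14.4 and 13.9 in DKO, 13.1 and 13.3 in GKO, against 5.65 and 6.41 in primed ESCs. The lines stood in the same order as for Lifr, but over a narrower range, and the libraries of AKO and naïve ESCs overlapped. The fall in primed ESCs was 2.51-fold, with a log2 difference of -1.20 (SE 0.07, adjusted p = 4.83e-07 from limma). In GKO the difference was -0.18 (95% CI -0.35 to -0.01, adjusted p = 0.0658), which was not called with all libraries in the fit. Since both receptor levels are corrected for length, their ratio can be given: Il6st stood at 0.564 and 0.585 of the Lifr level in naïve ESCs, 0.512 and 0.540 in AKO, 0.665 and 0.639 in DKO, 0.811 and 0.859 in GKO, against 3.21 and 3.32 in primed ESCs. Lifr was thus the more abundant receptor mRNA in every J1 library and Il6st in both primed libraries.

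Jak1 (ENSMUSG00000028530, chr4:101008838-101122487, minus strand) encodes the main kinase of gp130 signalling. Naïve ESCs had 12.5 and 12.6 TPM, AKO 12.5 and 11.4, DKO 13.0 and 12.1, GKO 17.0 and 16.8, and primed ESCs 9.59 and 11.5. GKO stood above all other lines, whose neighbours in the order all overlapped. The rise in GKO over naïve ESCs was 1.35-fold, with a log2 difference of 0.40 (SE 0.09, adjusted p = 0.00416 from limma), and over DKO it was 0.40 as well (adjusted p = 0.00555). Both calls held in 13 of 13 alternatives. From AKO to DKO the difference was 0.07 (95% CI -0.12 to 0.27, adjusted p = 0.539), and the interaction of 0.33 (0.06 to 0.61) had an adjusted p of 0.0762. The fall in primed ESCs, -0.23 (adjusted p = 0.0311), was lost in 6 of 12 alternatives, with adjusted p-values between 0.00215 and 0.194, and was -0.11 without primed replicate 1.

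Jak2 (ENSMUSG00000024789, chr19:29228677-29290505, plus strand), the gene of a second JAK of this receptor, had the lowest level of the 9 in each J1 line. It stood at 2.58 and 2.46 TPM in naïve ESCs, 2.41 and 2.55 in AKO, 2.04 and 1.76 in DKO, 1.87 and 2.06 in GKO, against 2.41 and 1.69 in primed ESCs. No comparison called it with all libraries in the fit and no further scaling, and the libraries of all neighbouring lines overlapped. Its difference in primed ESCs was -0.21 (95% CI -0.48 to 0.05, adjusted p = 0.112 from limma). That difference was called under quantile normalization (-0.53) and without primed replicate 1 (-0.39), in 2 of 11 alternatives. Quantile normalization also called it lower in GKO (-0.37) and DKO (-0.37) against naïve ESCs and in DKO against AKO (-0.36). Jak1 made up 82.9% and 83.7% of the TPM of both kinases in naïve ESCs and 90.1% and 89.1% in GKO.

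Stat3 (ENSMUSG00000004040, chr11:100775924-100830450, minus strand) encodes the transcription factor that carries the signal, and the gene is itself a STAT3 target. Its level was 37.4 TPM in both naïve libraries, 36.3 and 35.7 in AKO, 32.7 and 33.9 in DKO, 33.5 and 32.3 in GKO, against 5.998 and 7.66 in primed ESCs. The libraries of DKO and GKO overlapped, and the other neighbours in the order did not. The fall in primed ESCs was 5.48-fold, at -2.30 on the log2 scale (SE 0.09, adjusted p = 1.90e-08 from limma). GKO differed from naïve ESCs by -0.18 (95% CI -0.37 to 0.02, adjusted p = 0.113) and DKO by -0.16 (-0.36 to 0.03, adjusted p = 0.154), neither of which was called.

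Socs3 (ENSMUSG00000053113, chr11:117856905-117860898, minus strand) is a direct STAT3 target whose product inhibits the receptor complex. It had 55.5 and 59.7 TPM in naïve ESCs, 51.3 and 53.5 in AKO, 44.2 and 47.1 in DKO, 49.7 and 48.4 in GKO, against 1.82 and 2.82 in primed ESCs. The naïve libraries were the highest, and no neighbouring lines in the order naïve, AKO, GKO, DKO and primed ESCs overlapped. At -4.16 on the log2 scale (SE 0.12, adjusted p = 3.34e-09 from limma), the fall in primed ESCs was the largest of the 9 genes, and 0.638% of all tested genes fell further. In DKO the difference was -0.33 (95% CI -0.60 to -0.06, adjusted p = 0.0473), which passed in 5 of 13 alternatives and in none that left out a library of either line. In GKO it was -0.23 (-0.49 to 0.04, adjusted p = 0.139). Socs3 stood at 1.49 and 1.60 times the Stat3 level in naïve ESCs, 1.48 and 1.5 times in GKO, and 0.303 and 0.368 times in primed ESCs.

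Phosphorylated STAT dimers bind a palindrome whose core letters are TTCNNNGAA, with N any base, and this core reads the same on both strands. It was searched for in promoter windows from RefSeq (GRCm38.p6), of 250 bases before to 50 bases after a transcript start. Of all 32851 windows, 8.30% held it. Genes are counted here when any of their windows held the core, so counts of genes are not the same measure as that share of windows. In all, 10 windows were matched for 8 of the 9 genes, all but Socs2, and of these genes only Socs3 held the core. It was also in 6 of the 48 matched genes of the wider pathway lists described further on, Akt2, Cish, Gab1, Icam1, Sbno2 and Zfp36. The stretch of Socs3 and those of Icam1, Gab1 and Akt2, the genes among these 6 that were called in GKO, are shown 5′ to 3′ on the strand of the gene, with the core in capitals:
Socs3: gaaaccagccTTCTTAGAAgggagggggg
Icam1: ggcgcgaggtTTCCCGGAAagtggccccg
Gab1: ccggaggagtTTCAGAGAAagtctgggct
Akt2: tcactgggccTTCGGGGAAagcctacttg
The Socs3 stretch lies at chr11:117860328-117860356 on the minus strand of GRCm39, where each window had 1 exact match, and its core is at bases -154 to -146 from the RefSeq start, counted as 0. Of the 8 Socs3 transcripts in GENCODE M39, 4 cover the core, 3 of them with an intron and 1 with a 5′ UTR exon. The Icam1 stretch is at chr9:20927184-20927212 (plus strand), that of Gab1 at chr8:81607102-81607130 (minus strand) and that of Akt2 at chr7:27290807-27290835 (plus strand). The cores of Icam1 and Gab1 lie in UTR exons of 4 of 5 and 10 of 14 annotated transcripts. That of Akt2 is covered by only 1 of 82 annotated transcripts, in an intron. A match of letters is not a bound site, and the absence of these letters from a window says nothing about STAT3 at the other genes.

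Socs2 (ENSMUSG00000020027, chr10:95219523-95253929, minus strand) encodes another inhibitor of cytokine receptors. It stood at 28.2 and 26.2 TPM in naïve ESCs, 20.4 and 20.8 in AKO, 19.5 and 22.9 in DKO, 24.0 and 24.5 in GKO, against 11.9 and 11.8 in primed ESCs. Naïve ESCs were highest, and the libraries of DKO and AKO overlapped. The fall in primed ESCs was 2.29-fold, at -1.13 (SE 0.07, adjusted p = 6.65e-07 from limma). DKO differed from naïve ESCs by -0.35 (adjusted p = 0.00429) and AKO by -0.38 (95% CI -0.55 to -0.21, unadjusted p = 0.000616, adjusted p = 0.111). The DKO call held in 13 of 13 alternatives, whereas the AKO difference passed in 0 of 13. GKO differed from naïve ESCs by -0.16 (95% CI -0.33 to 0.01, adjusted p = 0.0976).

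Pim1 (ENSMUSG00000024014, chr17:29709581-29715086, plus strand), a serine/threonine kinase gene, is a STAT3 target known to support ESC self-renewal. Its level was 48.0 and 44.5 TPM in naïve ESCs, 48.0 and 48.3 in AKO, 44.8 and 44.6 in DKO, 47.3 and 50.1 in GKO, against 2.822 and 2.7 in primed ESCs. The 8 libraries of the J1 lines spanned 44.5 to 50.1 TPM. In primed ESCs the mean was 16.75-fold lower (log2 difference -3.65, SE 0.05, adjusted p = 7.54e-11 from limma). The difference in GKO was 0.07 (95% CI -0.05 to 0.19, adjusted p = 0.274) and that in DKO -0.05 (-0.17 to 0.07, adjusted p = 0.500).

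Gbx2 (ENSMUSG00000034486, chr1:89855678-89858920, minus strand), a homeobox gene, is a STAT3 target in naïve ESCs and is also used in the early neural plate. Naïve ESCs had 15.0 and 14.0 TPM, AKO 10.8 and 11.3, DKO 13.7 and 13.4, GKO 18.0 and 17.3, and primed ESCs 5.84 and 3.18. The order was GKO, naïve, DKO, AKO and primed ESCs, with no overlap between neighbours. In primed ESCs it fell 3.21-fold by the means, at -1.53 (SE 0.18, adjusted p = 3.94e-05 from limma). The difference in GKO was 0.27 (95% CI -0.14 to 0.68, adjusted p = 0.242), in AKO -0.36 (-0.77 to 0.05, adjusted p = 0.553) and from DKO to GKO 0.36 (-0.05 to 0.77, adjusted p = 0.139). The SE of Gbx2 was the largest of the 9 in each comparison between lines, and its primed libraries differed by 0.71 on the log2 scale, the largest gap between replicates of any of the 9 genes. With the primed libraries out of the fit it was called in GKO and AKO against naïve ESCs and in DKO against AKO and GKO against DKO.

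Mesendoderm markers differed between the primed libraries in the same direction as Gbx2. The 5 mesendoderm markers summed to 21.9 TPM in primed replicate 1 and 2.90 in replicate 2, against 36.4 to 37.3 in naïve ESCs, 32.9 to 33.3 in AKO, 22.4 to 23.7 in DKO and 36.1 to 38.1 in GKO. Of them, T was at 8.97 and 0.786 TPM in primed ESCs, and 0 of 5 were listed at 0 in both libraries of any line. The 4 neural markers summed to 165 TPM in primed replicate 1 and 149.8 in replicate 2, against 51.5 to 74.1 TPM in naïve ESCs, AKO and DKO and 102.5 to 103 TPM in GKO, and 0 of 4 were listed at 0 in both libraries of a line. Tubb3 made up most of the J1 sums, at 59.0 and 60.6 TPM in naïve ESCs and 96.2 and 95.3 in GKO. Sox1 and Pax6 were under 1 TPM in every J1 library. Tubb3 and Nes were called higher in GKO than in naïve ESCs, and Sox1 and Pax6 were not called. The 5 trophectoderm markers summed to 13.1 TPM in primed replicate 1 and 8.91 in replicate 2, 10.2 to 12.6 TPM in DKO and GKO, and 4.75 to 5.64 TPM in naïve ESCs and AKO. The 6 primitive endoderm markers summed to 7.18 TPM in primed replicate 1, 2.87 in replicate 2 and 1.11 to 2.40 TPM in the J1 lines. The 5 fibroblast markers summed to 6.50 TPM in primed replicate 1 and 7.20 in replicate 2, with Dcn and Lum at 0 in both, and 0.667 to 2.39 TPM in the J1 lines. The part of such cells in the values was not tested.

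Genes of the same chromosome were set beside each of the 9. On chromosome 19, that of Jak2, the 392 other tested genes had a median log2 difference of -0.40 in GKO and -0.27 in DKO, against -0.01 over all tested genes in each. Jak2 itself, at -0.25 and -0.28, was within the quartiles of that chromosome in both. On chromosome 15, that of Lifr, the 462 other genes had a median of -0.15 in GKO and -0.16 in DKO. In GKO 4.33% of them had a lower difference than Lifr, and in DKO 34.8%. Prkaa1, the gene targeted in AKO and DKO, lies 1.91 Mb from Lifr on that chromosome. Within 3 Mb of Lifr, a window set after the values were seen, 16 other genes were tested, Prkaa1 among them. Of the 16, 6 were called lower and 1 higher in GKO and 3 lower and 4 higher in DKO, with medians of -0.14 and -0.08. The part of these neighbourhoods and chromosomes in the levels of Lifr and Jak2 was not tested. For Jak1, whose chromosome 4 had a median of -0.02 in GKO, 86.6% of its 766 other genes had a lower difference.

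**Figure D3:**
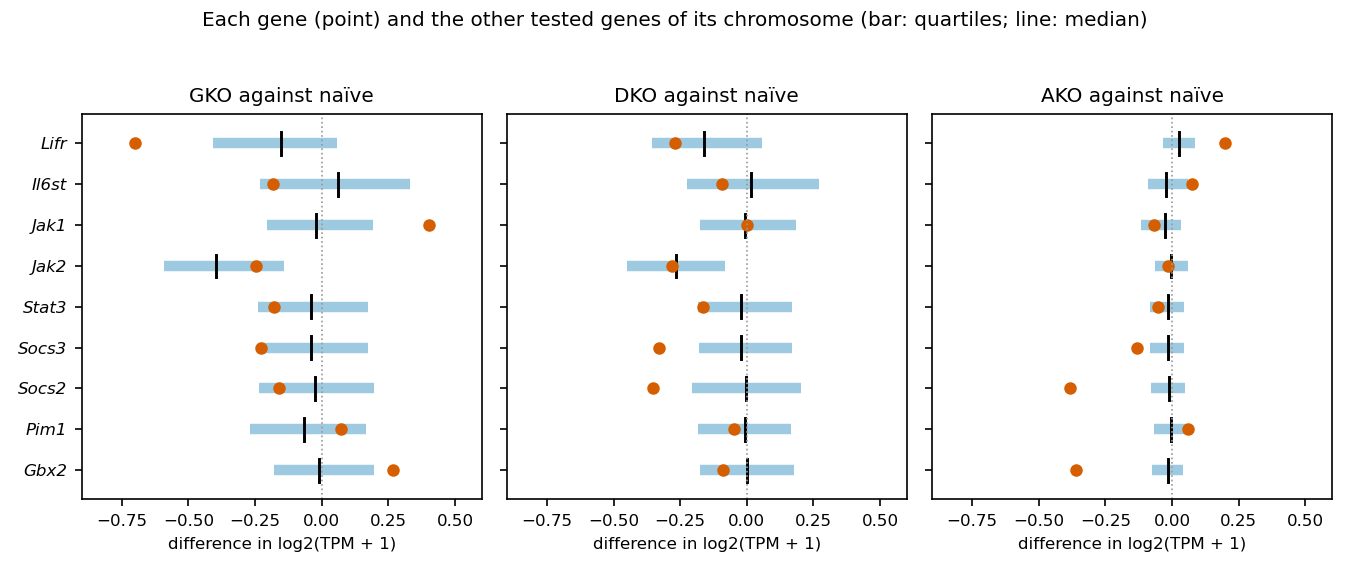
Log2 difference of each of the 9 genes (point) beside the other tested genes of its chromosome (bar from the lower to the upper quartile, line at the median), in GKO, DKO and AKO against naïve ESCs. Lifr in GKO lies at -0.70 below the lower quartile of -0.41 on chromosome 15, Jak1 at 0.40 above the upper quartile of 0.19 on chromosome 4, and Jak2 inside the low-lying range of chromosome 19.

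Around these 9, 66 further pathway genes in 6 lists were looked at, of which 58 were tested. In primed ESCs 16 were called higher and 30 lower than in naïve ESCs, with a median of -0.22, in GKO 15 higher and 16 lower (median 0.03), and in DKO 13 and 13 (median -0.04). In DKO against AKO, 16 were higher and 14 lower, 51.7% of the 58 against 46.3% of all tested genes. The shares called, 79.3% in primed ESCs, 53.4% in GKO and 44.8% in DKO, stood near those of all tested genes, 80.0%, 51.7% and 46.0%. Of the GKO calls, 18 of 31 held in every alternative, as did 38 of 46 in primed ESCs and 17 of 26 in DKO.

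Of the 9 ligands, 5 were tested. Lif itself stood at 1.16 and 1.17 TPM in naïve ESCs, 0.987 and 1.33 in AKO, 3.01 and 2.81 in DKO, 3.08 and 3.07 in GKO, against 0.967 and 0.556 in primed ESCs. All libraries of both Gys1-deficient lines thus lay above all others. The log2 difference was 0.92 in GKO (adjusted p = 0.000289 from limma) and 0.86 from AKO to DKO (adjusted p = 0.000502), with an interaction of 0.05 (adjusted p = 0.848). Of the other ligands, named after their values were seen, Osm rose by 0.35 in GKO and 0.48 in DKO and was listed at 0 in both primed libraries, and Cntf fell by 0.85 and 0.76. Of the other receptors, 3 of 5 were tested. Il6ra, the IL-6 receptor, fell by 2.71 in primed ESCs (adjusted p = 1.09e-08) from 6.80 and 7.26 to 0.258 and 0.191 TPM. Cntfr, the receptor of ciliary neurotrophic factor, rose by 4.79 (adjusted p = 2.40e-08) from 0.600 and 0.467 to 51.4 and 33.3 TPM, so receptors that signal through gp130 moved both ways.

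Of the 8 other JAK and STAT genes, 7 were tested, and 3 rose and 2 fell in GKO, 71.4% of the list against 51.7% of all tested genes. Jak3, a kinase best known from lymphocytes, stood at 22.2 and 22.4 TPM in naïve ESCs, 21.1 and 21.3 in AKO, 23.0 and 24.9 in DKO, 42.5 and 41.9 in GKO, against 4.26 and 4.14 in primed ESCs. The GKO libraries lay above all others, by 0.89 against naïve ESCs (adjusted p = 5.14e-06 from limma) and 0.79 against DKO (adjusted p = 1.26e-05). Tyk2, the remaining JAK, fell in GKO by 0.55 (adjusted p = 9.66e-05) from 16.3 and 15.8 to 10.9 and 10.4 TPM, and was at 14.6 and 14.8 TPM in DKO. Stat6 rose in DKO from 5.37 and 5.14 to 9.80 and 9.36 TPM (adjusted p = 0.00424), while GKO had 5.21 and 5.48 TPM. In primed ESCs Jak3 fell (-2.16), as did Tyk2 (-1.99).

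All 14 inhibitors and phosphatases were tested, and 4 rose and 2 fell in GKO, 4 rose and 4 fell in DKO, and 4 rose and 5 fell in primed ESCs. These are 42.9%, 57.1% and 64.3% of the list, against 51.7%, 46.0% and 80.0% of all tested genes. Ptpn1, the phosphatase PTP1B that acts on JAKs, stood at 10.7 and 10.9 TPM in naïve ESCs, 10.5 and 10.2 in AKO, 13.8 and 12.9 in DKO, 15.95 and 16.7 in GKO and 24.2 in both primed libraries. It rose in GKO by 0.56 (adjusted p = 6.97e-05 from limma), in DKO by 0.28 and in primed ESCs by 1.095. Ptpn6, the phosphatase SHP-1, rose by 0.45 in GKO and 0.62 in DKO and fell by 0.45 in primed ESCs. Ptpn2, which acts on JAKs and STATs, fell by 0.83 in primed ESCs. Socs4 rose by 0.39 in GKO, 0.49 in DKO and 0.60 in primed ESCs, and Socs6 fell by 0.21 in GKO and 0.29 in DKO, calls that held in 8 and 11 of 13 alternatives. Socs7 rose by 0.40 in primed ESCs and fell by 0.37 in DKO, which held in 11 of 13. Of the genes for PIAS proteins, SUMO ligases that bind STATs, Pias4 fell by 0.42 in GKO and 0.52 in primed ESCs. Pias2 rose by 0.37 in DKO and fell by 1.09 in primed ESCs.

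All 12 genes of the ERK and PI3K branches were tested, and 4 rose and 5 fell in GKO, 3 rose and 4 fell in DKO, and 5 rose and 6 fell in primed ESCs. The shares called were 75.0%, 58.3% and 91.7%, against 51.7%, 46.0% and 80.0% of all tested genes. Gab1, an adaptor that carries the signal of gp130 to ERK and PI3K, stood at 84.1 and 82.3 TPM in naïve ESCs, 78.6 and 80.7 in AKO, 103 and 100.5 in DKO, 61.3 and 58.5 in GKO, against 4.32 and 4.23 in primed ESCs. It fell in GKO by 0.47 (adjusted p = 4.51e-05 from limma) and rose in DKO by 0.28 (adjusted p = 0.000813), so the Gys1-deficient lines lay on opposite sides of naïve ESCs. Akt1 fell by 0.71 in GKO and 0.86 in DKO and rose by 0.67 in primed ESCs. Akt2 fell by 0.56 in GKO, 0.19 in DKO and 1.34 in primed ESCs, and the call in DKO held in 9 of 13 alternatives. Yes1, a Src family kinase that LIF activates in ESCs, fell in GKO (-0.19, called in 8 of 13 alternatives) and in primed ESCs (-2.10). Mapk3, which encodes ERK1, rose by 0.21 in GKO (adjusted p = 0.0486, called in 6 of 13 alternatives) and 1.102 in primed ESCs. Shc1 rose in all of these, by 0.20 in GKO, 0.20 in DKO and 0.16 in primed ESCs.

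**Figure D4:**
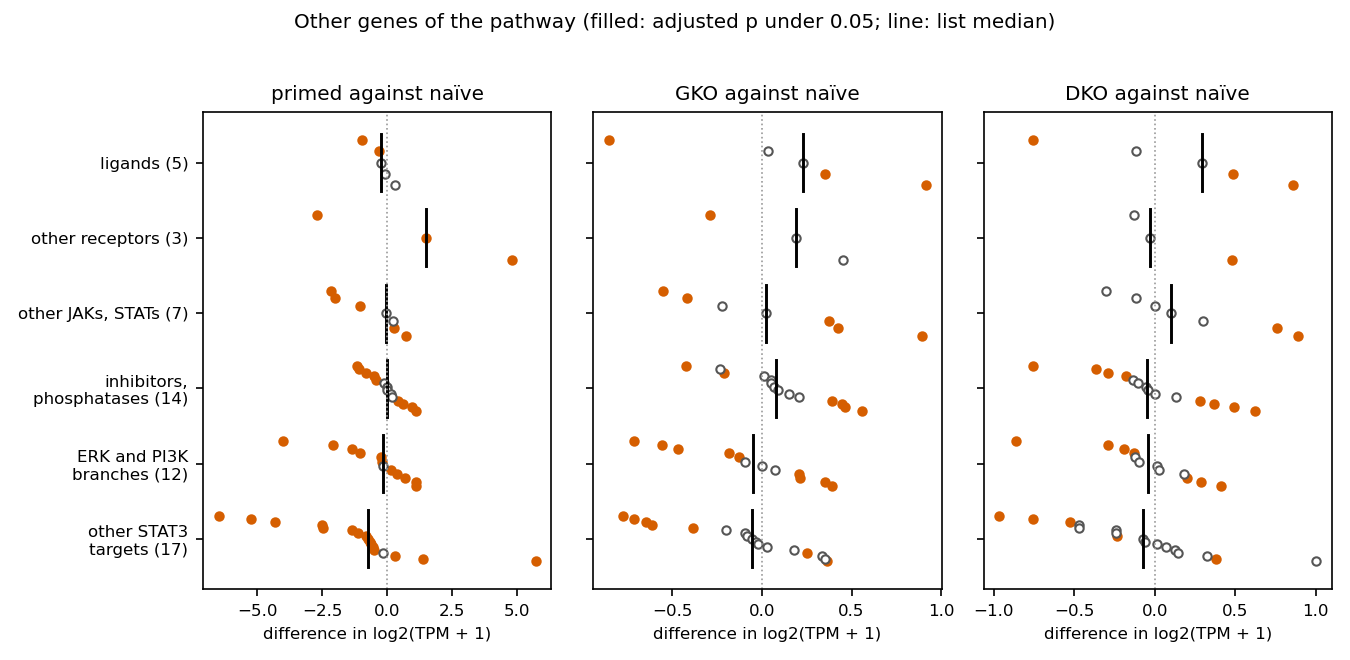
Log2 difference of each tested gene of the 6 wider lists, by list (number tested in brackets), in primed ESCs, GKO and DKO against naïve ESCs, with filled points at an adjusted p under 0.05 and a line at the list median. Of the other STAT3 targets 13 of 17 lie called below 0 in primed ESCs, with Pim2 far to the right at 5.71, while the points of GKO and DKO spread to both sides of 0; the horizontal axes differ.

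Of the 18 other STAT3 targets, 17 were tested. In primed ESCs 13 fell and 3 rose, with a list median of -0.74. In GKO 5 fell and 2 rose, with a median of -0.05, and in DKO 4 fell and 1 rose, with a median of -0.08. The shares called were 94.1%, 41.2% and 29.4%, against 80.0%, 51.7% and 46.0% of all tested genes. Klf4, a naïve transcription factor gene, stood at 121 and 113 TPM in naïve ESCs, 116 and 112 in AKO, 142 and 151 in DKO, 152 and 147 in GKO, against 2.78 and 1.59 in primed ESCs. The libraries of GKO and DKO lay above those of naïve ESCs, but the differences of 0.35 and 0.32 were not called (adjusted p = 0.0605 and 0.089 from limma). Each of these 2 differences passed in 3 of 13 alternatives. Tfcp2l1, which links LIF to the naïve network, had 109.7 and 109.9 TPM in naïve ESCs, 132 and 130 in GKO, 148 and 139 in DKO and 0.277 and 0.211 in primed ESCs. The gene was called higher by 0.25 in GKO (adjusted p = 0.0027) and 0.38 in DKO (adjusted p = 0.000333) and fell by 6.48 in primed ESCs. Klf5 had 61.5 and 61.7 TPM in naïve ESCs and 62.4 and 63.4 in GKO (difference 0.03, adjusted p = 0.822), and fell by 0.74 in primed ESCs.

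Of the other genes of the Pim family, Pim3 stood at 109 and 110 TPM in naïve ESCs, 99.6 and 99.2 in AKO, 53.9 and 57.3 in DKO, 63.7 in both GKO libraries, and 18.3 and 19.2 in primed ESCs. It fell by 0.77 in GKO (adjusted p = 4.73e-06 from limma), by 0.97 in DKO (adjusted p = 2.03e-06) and by 0.83 from AKO to DKO (adjusted p = 4.65e-06). The interaction for Pim3 was 0.05 (adjusted p = 0.572). Pim2 stood at 8.00 and 7.62 TPM in naïve ESCs, 4.88 and 4.64 in GKO, against 444 and 476 in primed ESCs, a rise of 5.71 in primed ESCs and a fall of 0.61 in GKO. Icam1 rose by 0.37 in GKO (adjusted p = 0.00937) and fell by 2.52 in primed ESCs. Fos rose by 1.36 in primed ESCs, with 12.6 and 3.74 TPM in its libraries. That difference was 0.60 without primed replicate 1 and 2.12 without replicate 2, and it was not called without naïve replicate 2 (1.08, adjusted p = 0.0748 in limma, within 1.35e-05 to 0.0748 over its alternatives). Sbno2 fell by 0.24 in DKO, a call that held in 11 of 13 alternatives.

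Over the 8 libraries grown with LIF, the levels of all 8082 genes with a mean of at least 5 TPM were compared with those of the 9 by Pearson's r on log2(TPM + 1), and the closest are named for Lifr, Socs3 and Gbx2. Most like Lifr were Pdia6 (r = 0.998) and Mief1 (0.997). Pdia6 averaged 159 TPM in naïve ESCs, 177 in AKO, 139 in DKO and 113 in GKO, the order of Lifr. The gene most like Socs3 was Ddx18 (0.972), and those most like Gbx2 were Ythdc2 (0.984) and Vps4b (0.979). These are the highest of 8082 values over points that share lines in pairs, and are given as a description only.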

How the data were processed

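RNA of 10 libraries, 2 for each of 5 lines, was sequenced as poly(A)-selected mRNA. The deposited values are TPM per gene, 1 table for each library, made by the authors with Trim Galore 0.6.6, STAR 2.7.9a and RSEM 1.3.3 per the labels, which name GRCm38, whereas the study's methods name GRCm39; the kit and sequencer also differ between these sources. TPM keeps no read depth, so the depth of each library is unknown and the precision rests on the 2 libraries. Sums over listed genes were 500162 to 578952 TPM per library. Groups came from the sample titles and genotypes.

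From there, the 12060 of 21853 genes that reached 1 TPM in 2 or more libraries were fitted as log2(TPM + 1) with limma 3.58.1 in R 4.3.3, with a mean per line and an intensity trend. A log2(TPM + 1) difference understates the change of low genes. Benjamini-Hochberg adjustment ran over all tested genes within each of 7 comparisons, with a threshold of 0.05. The script was tested on simulated data. Alternatives changed the pseudocount, the filter, the scaling, the trend, the libraries fitted and a replicate block. The 9 genes, the wider lists, the markers and the tests were chosen with earlier results of these data known. Named from the wider lists were Lif, Klf4, Klf5 and Tfcp2l1 and, per list, the 2 called genes of lowest adjusted p in each direction with at least 5 TPM in the higher line, in primed ESCs, GKO and DKO against naïve ESCs. For Lifr, Socs3 and Gbx2 the 2 genes of most similar pattern were named. Some genes that these rules name are not reported here. Gene positions came from GENCODE M39 (GRCm39), matched by symbol for 11586 of the tested genes (96.1%), and promoter letters from RefSeq.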

Additional observations from a re-analysis of the deposited data

Results flagged for a closer look

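For 11 of the 58 tested genes of the wider lists, the difference from naïve ESCs to GKO was not that from AKO to DKO. This rests on limma's test of the interaction with Benjamini-Hochberg adjustment over all 12060 genes, of which 25.8% were called. AKO and DKO also differ in Prkaa1, at 7.24 and 6.94 against 2.30 and 2.04 TPM. The interaction therefore does not isolate Gys1 loss, and a clone cannot be told apart from its genotype. Values are (GKO minus naïve) minus (DKO minus AKO) on the log2 scale, with 2 libraries per line. None of the 9 pathway genes was among them.

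The interaction was negative for 7 genes, of which 6 are given. Gab1 had -0.81 (adjusted p = 9.68e-05), from -0.47 for GKO minus naïve ESCs and 0.35 for DKO minus AKO. Stat6 had -0.83 (adjusted p = 0.0261), from 0.02 and 0.85. Tyk2 had -0.57 (adjusted p = 0.0017), from -0.55 and 0.02. Pias4 had -0.43 (adjusted p = 0.0108), from -0.42 and 0.01. Akt2 had -0.41 (adjusted p = 0.00392), from -0.56 and -0.15. Pias2 had -0.24 (adjusted p = 0.0221), from 0.05 and 0.29.

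It was positive for 4 genes. Cebpb had 1.06 (adjusted p = 0.00163), from -0.05 and -1.12. Jak3 had 0.73 (adjusted p = 0.000344), from 0.89 and 0.17. Stat5b had 0.61 (adjusted p = 0.036), from 0.37 and -0.24. Ptpn11, which encodes the phosphatase SHP-2, had 0.23 (adjusted p = 0.0237), from 0.05 and -0.18. Cebpb and Stat5b were named after their values were seen. Of the 11 calls, 6 held in every alternative. Those of Stat6, Stat5b, Ptpn11 and Pias2 were among the others, and each was lost when single libraries were left out.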

How the results depend on the processing

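With 2 libraries per line, most values of the 9 genes kept their direction and side of the threshold: 99 of 107 in primed ESCs, 103 of 116 in GKO, 99 of 116 in DKO, 113 of 116 in AKO (each against naïve ESCs), 106 of 116 in DKO against AKO, 106 of 116 in GKO against DKO and 123 of 143 in the interaction. Without the primed libraries the number of the 9 called was 7 in GKO, 5 in DKO, 1 in AKO, 6 in DKO against AKO and 2 in the interaction. Of the 12060 genes, 7286, 6614, 131, 6659 and 4499 were called in these. With only the lines compared it was 8 in GKO, 5 in DKO and 4 in DKO against AKO, among 7292, 6379 and 6203 of the 12060 genes. Quantile normalization gave 4 in GKO and 2 in DKO against AKO, among 5895 and 5318 of the 12060 genes. Leaving out 1 library at a time gave 0 to 1 in the interaction. Of the wider genes, a mean of at least 5 TPM left 17 called in DKO, with fewer genes tested, and AKO had 1 without the primed libraries. Over all genes these settings called 4148 of 8294 and 131 of 12060. Leaving out 1 library gave 14 to 18 in GKO against DKO (25 with all libraries) and 6 to 9 in the interaction (11 with all). Fewer of all 12060 genes were called as well in both comparisons whenever 1 library was left out, which leaves a line with 1 library. The wider genes were put through these alternatives after their values were seen. Beyond fewer genes or libraries, the cause was not tested.

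Values near 0 turned direction. Under quantile normalization these were Pim1 in DKO (0.0373), Jak2 (-0.00676) and Stat3 (0.0259) in GKO against DKO, and Il6st (0.0295), Jak2 (-0.0106) and Gbx2 (0.0520) in the interaction. Gbx2 also turned there under median-ratio scaling (0.00834). Leaving out 1 library gave -0.0474 to 0.0521 for Jak1 and -0.0997 to 0.00563 for Pim1 in DKO, -0.0463 to 0.0143 for Jak2 in AKO, -0.0805 to 0.142 for Socs2 in DKO against AKO, and -0.0356 to 0.101 for Jak2 and -0.0419 to 0.0106 for Stat3 in GKO against DKO. In the interaction it gave -0.0452 to 0.0413 for Gbx2, -0.0779 to 0.0429 for Il6st, -0.0516 to 0.0848 for Jak2 and -0.0822 to 0.0217 for Socs3.

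Replicate numbers are shared between lines, but deviations of same-numbered libraries correlated at -0.128 to 0.078, so the numbers did not pair the libraries. With the replicate block, 8 of the 9 genes were called in primed ESCs, 2 in GKO, 3 in DKO, 0 in AKO, 1 in DKO against AKO, 2 in GKO against DKO and 0 in the interaction, as without it. Over all genes the block left 9573 called in primed ESCs, 6046 in GKO, 5382 in DKO and 8 in AKO, where 27 were called without it. The block left 5409 called in DKO against AKO, 5034 in GKO against DKO and 2875 in the interaction.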
